A study of Mus musculus with 5 samples.

Results

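The genes described here encode the nuclear subunits of respiratory complexes III and IV, cytochrome c and ATP synthase. They were taken as all genes with a platform symbol that starts with Uqcr or Atp5, that has Cox followed by 4 to 8 and a letter, or that is Cyc1 or Cycs, on probe sets with exactly 1 symbol. The rule found 44 of the 18194 named genes on the array, read by 87 probe sets, with 10 genes in complex III and cytochrome c, 17 in complex IV and 17 in ATP synthase. Expression was measured in germinal centre B cells, which divide and mutate their antibody genes in follicles once an animal has been immunized. They were sorted from the spleens of C57BL/6 mice aged 12 weeks, at day 7 after injection of sheep red blood cells. The 2 REL arrays (genotype relfl/flCg1-Cre) came from eGFP+ cells of mice that carry Cg1-Cre and have both copies of Rel floxed. Rel encodes c-Rel, an NF-kB subunit. The 3 WT arrays came from littermates with Cg1-Cre alone, sorted as eGFP− cells. Both groups carried the Cre, which is driven from the Cg1 locus and acts in B cells that transcribe it. The sort gate (eGFP+ or eGFP−) differed together with the genotype, so gate and genotype cannot be told apart here. Whether arrays stand for different animals is not in the labels, and p-values therefore describe spread among these samples that may be technical.

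The respiratory chain passes electrons from NADH and succinate to oxygen and pumps protons across the inner mitochondrial membrane. Complex III moves electrons from ubiquinol to cytochrome c, complex IV moves them from cytochrome c to oxygen, and ATP synthase lets the protons flow back and makes ATP. The catalytic core of complex IV, cytochrome b of complex III and part of the ATP synthase membrane domain are encoded in mitochondrial DNA and were not analysed here. Germinal centre B cells divide fast, and their energy supply rests in part on this pathway.

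The promoter windows below are shown because 2 of the transcription factors known for respiratory genes, NRF1 and the ETS factor GABP, were themselves measured. A window runs from 250 bases before to 50 after a RefSeq start site, and 33 of the 44 genes had one, with 36 windows in all. Each is printed 5′ to 3′ in lower case, from RefSeq, with matches of the motifs named after them in capitals, except those of the CCAAT box.
Uqcrc1 (GRCm38.p6 chr9:108936398-108936697, plus strand): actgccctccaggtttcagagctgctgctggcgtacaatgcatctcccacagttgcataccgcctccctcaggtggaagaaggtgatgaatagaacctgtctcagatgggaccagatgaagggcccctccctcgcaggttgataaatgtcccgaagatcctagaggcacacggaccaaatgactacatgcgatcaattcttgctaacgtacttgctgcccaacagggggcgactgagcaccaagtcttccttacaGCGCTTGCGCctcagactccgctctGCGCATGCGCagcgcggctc
Cox6a1 (GRCm38.p6 chr5:115348909-115349208, minus strand): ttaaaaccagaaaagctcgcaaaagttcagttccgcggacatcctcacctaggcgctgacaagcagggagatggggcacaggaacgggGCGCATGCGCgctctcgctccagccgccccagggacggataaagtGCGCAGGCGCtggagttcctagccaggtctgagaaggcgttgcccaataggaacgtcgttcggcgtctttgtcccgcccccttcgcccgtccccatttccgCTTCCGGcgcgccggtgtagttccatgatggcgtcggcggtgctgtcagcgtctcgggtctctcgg
Atp5md (GRCm38.p6 chr19:47090598-47090897, minus strand): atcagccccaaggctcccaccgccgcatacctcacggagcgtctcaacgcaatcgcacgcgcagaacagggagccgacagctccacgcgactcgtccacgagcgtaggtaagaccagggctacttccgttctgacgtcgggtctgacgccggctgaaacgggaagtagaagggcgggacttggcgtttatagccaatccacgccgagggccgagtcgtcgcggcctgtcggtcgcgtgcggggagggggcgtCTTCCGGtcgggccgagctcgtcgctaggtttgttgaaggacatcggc
Cycs (GRCm38.p6 chr6:50566520-50566819, minus strand): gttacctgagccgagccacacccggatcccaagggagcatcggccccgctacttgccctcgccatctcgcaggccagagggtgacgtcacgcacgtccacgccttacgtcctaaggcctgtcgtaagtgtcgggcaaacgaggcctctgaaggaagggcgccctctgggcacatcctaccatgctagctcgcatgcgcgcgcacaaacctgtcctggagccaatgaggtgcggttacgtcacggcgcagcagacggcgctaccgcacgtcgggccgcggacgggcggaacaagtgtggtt

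The motifs searched on both strands were the NRF1 palindrome, in which GCGC stands directly before and after the letters AT, its looser form with any 2 letters in that place, which takes in every palindrome match, the ETS core CCGGAAG, which reads CTTCCGG on the other strand, the YY1 core AAGATGGC, and a kappa B form bound by NF-kB proteins (GGG followed after any 2 letters by TTTCC). The CCAAT box, a common promoter element, was searched as well. The Uqcrc1 window held the NRF1 palindrome at base 31 after the start and a second looser match at base 6. The Cox6a1 window held both forms and an ETS core, and the Atp5md window an ETS core. The Cycs window held no exact match of these, but its letters tcgcatgcgc differ from the palindrome only in the first letter. Such near matches were not counted. CCAAT was present in the Cox6a1, Atp5md and Cycs windows. The palindrome was present in 4 of the 36 windows (11.1%), against 0.971% of all 32851 windows of the same length. The looser form was in 8 windows (22.2%, against 6.23%), the ETS core in 11 (30.6%, against 8.86%), the YY1 core in 3 (8.33%, against 2.75%), the CCAAT box in 19 (52.8%, against 37.4%) and the kappa B form in 0 (against 1.63%). These matches describe letters in the windows and no binding.

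Values are MAS5 signals, the linear brightness of a probe set after Affymetrix summarization, and they compare arrays and not genes. The sort was checked on fixed marker lists. Germinal centre markers were present on every array, with Bcl6 at 9384 and 8731 in REL and 7619 to 10515 in WT, and the B cell gene Cd79a at 7971 and 9040 in REL and 7435 to 8508 in WT. The B cell list summed to 59510 and 71086 in REL and 58890, 69446 and 68081 in WT. The germinal centre list summed to 33333 and 37245 in REL and 33679 to 40991 in WT, and Rgs13, of that list, read 4514 and 3321 in REL and 4960 to 6058 in WT, with no overlap. Rel had signals of 18.6 and 85.2 in REL and 492, 134 and 206 in WT, and the deleted exons are not named in the labels, so its probe set may not check the genotype. Of 19 macrophage and monocyte markers 13 lay higher on both REL arrays than on every WT array. Adgre1 lay lower on both, at 120 and 116 in REL and 154 to 435 in WT, and the rest overlapped. The summed signal of the 19 markers was 9060 and 7278 in REL and 1458 to 2560 in WT. On every WT array Vcam1, C1qa, C1qc, Mrc1 and Mertk were below the signal of dim probe sets (23.1). Neutrophil markers summed to 410 and 111 in REL and 166 to 1341 in WT, with Ltf below that signal throughout. Erythroid and platelet markers summed to 284 and 73.2 in REL and 225 to 589 in WT. Of these, Hbb-b2 and Slc4a1 lay lower on both REL arrays than on every WT array, and the dim Hba-a1 higher. T cell markers summed to 6616 and 5390 in REL and 5026 to 5501 in WT, with Cd3d and Cd4 below the dim signal throughout. Most of that sum was Cd2 alone, at 5725 and 5088 in REL and 4396 to 5233 in WT. Plasma cell markers summed to 17291 and 19118 in REL and 17813 to 20863 in WT. Sdc1 of that list was lower and Xbp1 higher, both without overlap. Stromal, follicular dendritic and endothelial markers summed to 2782 and 1825 in REL and 2694 to 3546 in WT. There Cr2 was lower, and Pdgfrb and Pecam1 were higher, without overlap. The 5′ probe set of 18S ribosomal RNA read 1671 and 1984 in REL and 293 to 858 in WT. The part of any of these in the results below was not tested. In sorted bulk samples fewer cells of a type and less RNA per cell cannot be told apart.

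Transcripts of these complexes lay slightly lower in REL as a list, mainly on REL replicate 1, and no single gene passed the test. Of the 44 genes, 41 passed the filter that removed the 40% of probe sets with the lowest mean, each with a group mean above it in both REL and WT. The difference, REL minus WT on the log2(signal + 16) scale, was below 0 for 36 of the 41 genes (87.8%), against 56.8% of the 12083 genes tested, and above 0 for 5, against 43.2%. The median difference was −0.23 over the 41 genes and −0.07 over all genes. Most of the 41 genes are bright: 36 of them (not the same 36) had a signal over 1000 on every array. The shares over all genes were not matched to them in brightness, and the part of brightness in these differences was not tested. With arrays centred on their medians 27 of the 41 were below 0, against 40.6% of all genes, and 9 genes (Uqcrh, Cox4i1, Cox5a, Cox7a2, Cox8a, Atp5a1, Atp5h, Atp5j and Atp5o) turned to values above 0. By limma with Benjamini-Hochberg adjustment over all genes, 0 of the 41 passed an adjusted p of 0.05, where the share called in either direction over all genes was 0.00828% (1 gene, Vcam1). At an unadjusted p under 0.05 there were 3 lower (7.32%, against 4.99% of all genes) and 0 higher (against 3.24%). The REL pair was under the whole WT range for 10 of the 41 genes (24.4%, against 14.3%) and over it for 1 (2.44%, against 9.53%). The median SD between arrays was 0.27 in REL and 0.18 in WT for the 41 genes. The plot of differences shows most intervals crossing 0, while 36 of the 41 stayed above a difference of −1 at their lower 95% bound.

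**Figure D1:**
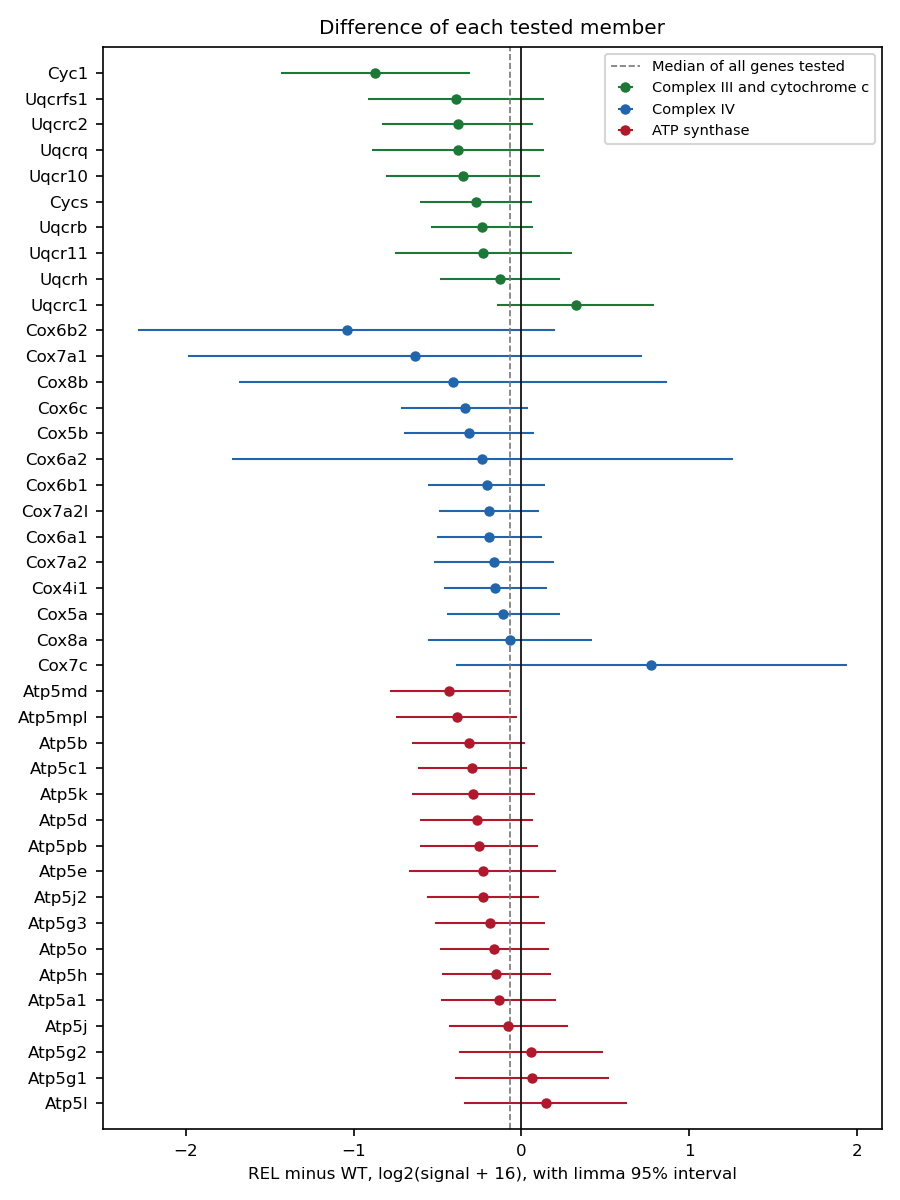
REL minus WT difference of the 41 tested genes on the log2(signal + 16) scale, with limma 95% intervals, by complex and ordered by size. The solid line is 0 and the dashed line the median of all genes (−0.07), and 36 of the 41 points lie below 0.

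The lower values came mainly from 1 of the 2 REL arrays. REL replicate 1 was the lowest of the 5 arrays for 30 of the 41 genes (73.2%, against 23.6% of all genes), and REL replicate 2 for 4 (9.76%, against 28.1%). REL replicate 1 lay below every WT array for 31 genes (75.6%, against 31.2% of all genes). REL replicate 2 did so for 13 (31.7%, near the 34.7% of all genes) and lay within the WT range for 25 (61.0%, against 40.7%). The median deviation of the 41 genes from their WT mean was −0.32 and −0.09 in REL and −0.15, 0.11 and 0.06 in WT replicates 1 to 3. REL replicate 2 thus stood nearer to the WT mean than WT replicate 1 did. Relative to the median of all genes on the same array, the 41 genes stood at −0.29 and 0.003 in REL and at −0.10, 0.10 and −0.004 in WT. Without REL replicate 1 the count below 0 was 29 of 41, against 56.7% of all genes, and without REL replicate 2 it was 37. The medians without REL replicate 1 were −0.16 for complex III and cytochrome c, −0.09 for complex IV and −0.06 for ATP synthase, where the median of all genes was −0.10. WT arrays also moved them, to −0.13 for complex IV and −0.14 for ATP synthase without WT replicate 2, and to −0.30 for complex IV without WT replicate 1. Without REL replicate 2 the ATP synthase median was −0.37. The summed macrophage marker signal given above was higher in REL replicate 1 than in REL replicate 2, and the summed germinal centre signal was lower. The order of the macrophage sums rested on Lyz1 and Lyz2, which read 2622 and 1318 in REL replicate 1 and 749 and 442 in REL replicate 2. C1qb, Mpeg1, Hmox1, Cd68 and Itgam were higher in REL replicate 2, and the other macrophage markers in REL replicate 1. The part of these signals in the lower values was not tested.

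**Figure D2:**
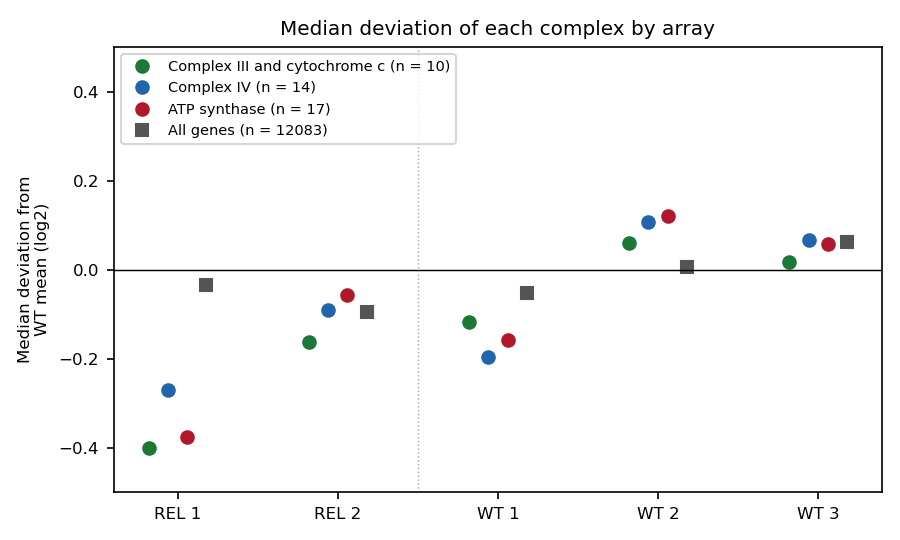
Median deviation from the WT mean, in log2 units, of the tested genes of each complex and of all genes, by array. The 3 complexes lie between −0.27 and −0.40 in REL replicate 1 and between −0.06 and −0.16 in REL replicate 2, where the median of all genes is −0.09.

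Complex III and cytochrome c had the lowest median of the 3 groups, −0.31 over 10 genes, with 9 below 0 (90%, against 56.8% of all genes). Cyc1, which encodes cytochrome c1, the haem protein that hands electrons to cytochrome c, had signals of 1666 and 1899 in REL and 2990, 2693 and 4321 in WT. Both REL arrays lay well below the lowest WT array. On the log2 scale they averaged 10.81 ± 0.13 in REL and 11.68 ± 0.36 in WT (SD, 2 and 3 arrays). The difference was −0.87 (SE 0.25, 95% interval −1.44 to −0.30), which puts REL at 54.7% of WT, and the limma adjusted p was 0.406. Cycs, the electron carrier that also triggers apoptosis when it leaves the mitochondrion, read 5194 and 5450 in REL and 6377, 6743 and 6187 in WT. The groups did not overlap, and the spread within each was narrow (log2 SD 0.05 in REL and 0.06 in WT). Its difference was −0.27 (SE 0.15, limma adjusted p = 0.692). The other 2 Cycs probe sets that passed the filter were at −0.32, where the groups overlapped, and −0.56, where they did not.

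The core and catalytic subunits of complex III did not move alike. Uqcrc1, a core protein that faces the matrix, read 2782 and 3243 in REL and 2564, 2239 and 2392 in WT. It was the single gene of the 41 with both REL arrays above every WT array, at 0.32 (SE 0.21, limma adjusted p = 0.749). Uqcrc2, its partner core protein, read 3328 and 4879 in REL and 4869, 5195 and 5722 in WT, where REL replicate 2 overlapped the lowest WT array. Its difference was −0.38 (SE 0.20, limma adjusted p = 0.685), and a second probe set was at −0.32 with no overlap. Uqcrfs1, the Rieske iron-sulphur protein, read 2025 and 2947 in REL and 3674, 2887 and 3092 in WT, with a difference of −0.39 (SE 0.23). Here too only REL replicate 1 lay outside the WT range.

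Among the small subunits of complex III, Uqcrq read 2032 and 2216 in REL and 2529, 3367 and 2480 in WT, a difference of −0.38 (SE 0.23) with no overlap. Uqcrb, which lies near the quinone site, read 10404 and 10824 in REL and 10854, 13701 and 13141 in WT, a difference of −0.24 (SE 0.14) with REL replicate 2 just under the lowest WT array. Uqcr10 read 3653 and 5076 in REL and 4627, 5676 and 6265 in WT, at −0.35 (SE 0.21). Uqcr10 overlapped between groups, as did Uqcr11 at −0.23 and the hinge protein gene Uqcrh at −0.13. In limma these 5 genes had adjusted p between 0.709 and 0.9.

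**Figure D3:**
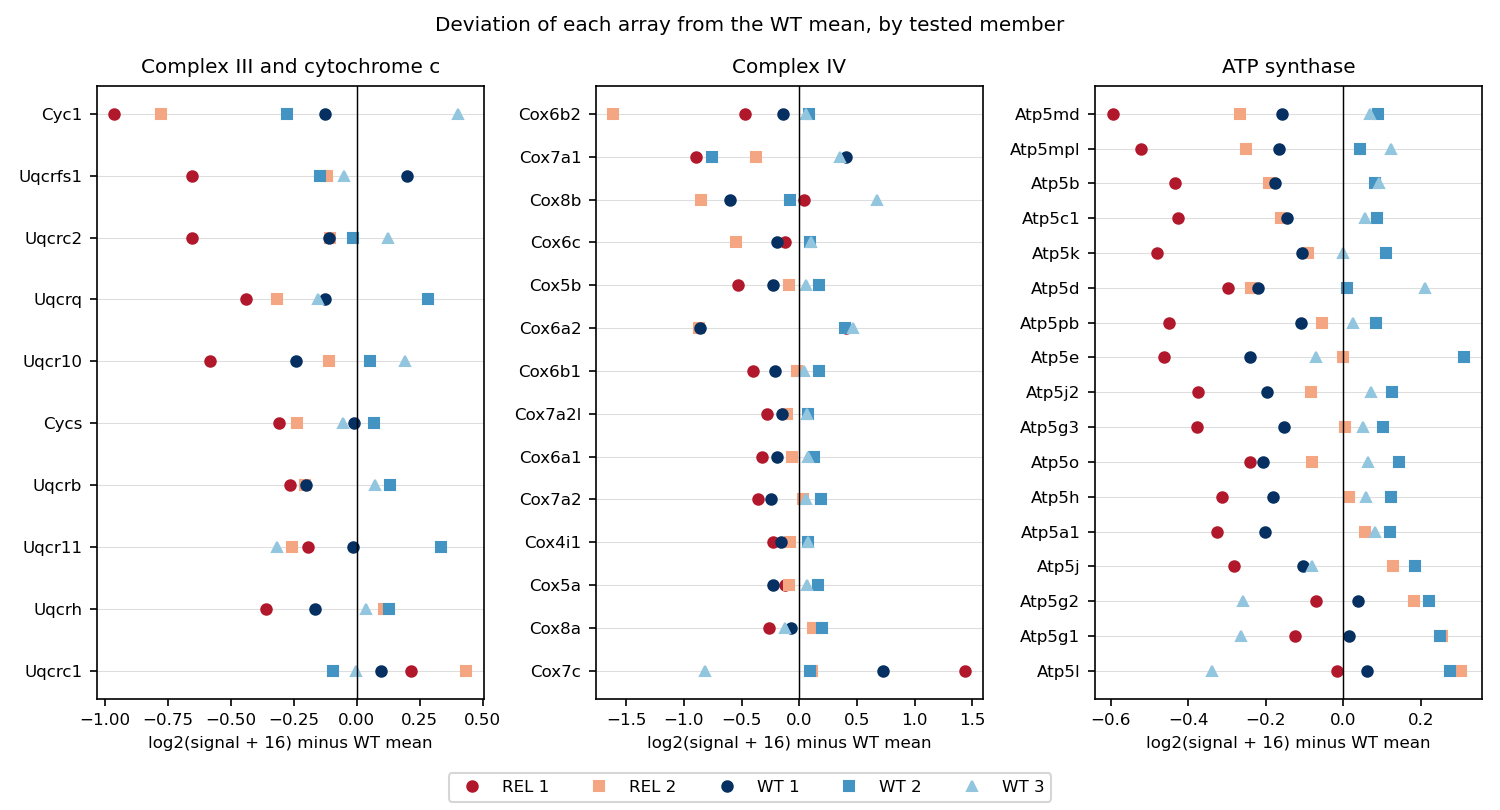
Deviation of each array from the WT mean of the same gene on the log2(signal + 16) scale, for the 41 tested genes, by complex (red and orange points are REL, blue points WT). REL replicate 1 is the lowest point for 30 genes, Cyc1 and Cycs have both REL points below every WT point, and Uqcrc1 has both above.

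Complex IV genes had a median difference of −0.20 over 14 tested genes, 13 of them below 0 (92.9%, against 56.8% of all genes). The REL pair was under the whole WT range for 1 (7.14%, against 14.3% of all genes) and over it for 0 (against 9.53%). The groups overlapped for the other 13 of the 14. Cox6c read 8457 and 6316 in REL and 8068, 9832 and 9941 in WT, a difference of −0.34 (SE 0.17, limma adjusted p = 0.659). In this gene REL replicate 2 was the low array and REL replicate 1 lay within the WT range. Cox5b, a zinc-binding subunit, read 7285 and 9892 in REL and 8998, 11840 and 10964 in WT, at −0.31 (SE 0.17, limma adjusted p = 0.7). Cox7a2l, which helps join complexes III and IV into supercomplexes, read 9149 and 10356 in REL and 10060, 11738 and 11672 in WT, at −0.19 (SE 0.13). The other 2 Cox7a2l probe sets that passed were at −0.33 and −0.32, both without overlap. REL replicate 1 was the low array in both genes. The other ubiquitous subunits Cox6b1, Cox6a1, Cox7a2, Cox4i1, Cox5a and Cox8a lay between −0.21 and −0.07, each with overlapping groups on the probe set used. Their further probe sets that passed lay between −0.16 and 0.17. Of those only the Cox6a1 one, at −0.16, had no overlap.

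Cox7c went against the rest of complex IV, with signals of 2044 and 806 in REL and 1239, 794 and 417 in WT. The difference was 0.77 (SE 0.52, limma adjusted p = 0.755), and the arrays of each group spread over more than the difference, with a log2 SD of 0.94 in REL and 0.77 in WT. A second, dim probe set pointed the other way, at −0.87. The difference was 0.11 without REL replicate 1, 1.44 without REL replicate 2 and 0.37 without WT replicate 3.

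The tissue isoforms of complex IV were dim in these cells. Cox6b2, the testis form of subunit 6b, read 54.8 and 16.3 in REL and 73.3, 88.1 and 86.4 in WT. It was the single complex IV gene with no overlap, at −1.04 (SE 0.56, limma adjusted p = 0.686), and its interval ran from −2.29 to 0.20. The heart and muscle forms Cox6a2, Cox7a1 and Cox8b had signals of 17.8 to 153 over the 5 arrays and differences of −0.23, −0.63 and −0.41 with SE of 0.57 to 0.67. Cox4i2, Cox7b2 and Cox8c did not pass the filter, with signals of 1.36 to 40.8 over all arrays and probe sets, and were not tested.

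ATP synthase genes had a median difference of −0.23 over 17 tested genes, 14 of them below 0 (82.4%, against 56.8% of all genes). For 5 of the 17 (29.4%, against 14.3% of all genes) the REL pair lay under the whole WT range. The lowest were a pair of small membrane subunits found with the dimer-forming part of the enzyme. Atp5md, also called Usmg5 or DAPIT, read 5862 and 7364 in REL and 7937, 9426 and 9300 in WT, with no overlap. The difference was −0.43 (SE 0.16, 95% interval −0.79 to −0.08), or 74.2% of WT, with a limma adjusted p of 0.494. Atp5mpl, the gene of a small proteolipid subunit, read 5488 and 6620 in REL and 7023, 8124 and 8594 in WT, also with no overlap, at −0.39 (SE 0.16, limma adjusted p = 0.567).

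The catalytic head followed with smaller differences. Atp5b, the catalytic beta subunit, read 6945 and 8229 in REL and 8315, 9949 and 10012 in WT, at −0.31 (SE 0.15, limma adjusted p = 0.643). Atp5c1, the rotating gamma subunit, read 7434 and 8937 in REL and 9030, 10618 and 10391 in WT, at −0.29 (SE 0.15, limma adjusted p = 0.651). Atp5d, the delta subunit of the central stalk, read 8702 and 9066 in REL and 9179, 10758 and 12383 in WT, at −0.27 (SE 0.15, limma adjusted p = 0.703). In all 3 genes REL replicate 2 lay only just under WT replicate 1, the lowest WT array. For Atp5c1 and Atp5d a second probe set pointed the other way, at 0.29 and 0.15. Atp5a1, the alpha subunit, was at −0.13 and Atp5e, the epsilon subunit, at −0.23, both with overlapping groups.

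In the peripheral stalk, which holds the head still, Atp5pb, Atp5o, Atp5h and Atp5j lay at −0.25, −0.16, −0.15 and −0.08, with REL replicate 1 the lowest array in each. A second Atp5pb probe set was at −0.35 with no overlap, and those of Atp5o and Atp5h were at −0.12 and −0.14 with overlap. Of the membrane subunits, Atp5k read 5624 and 7366 in REL and 7287, 8468 and 7839 in WT, at −0.29 (SE 0.16, limma adjusted p = 0.708), and Atp5j2 was at −0.23. The 3 genes of the ring subunit c, which encode the same mature protein, did not share a direction, with Atp5g1 at 0.07, Atp5g2 at 0.06 and Atp5g3 at −0.19 (SE 0.15 to 0.21). Atp5l, a membrane subunit, read 4321 and 5400 in REL and 4559, 5296 and 3455 in WT, at 0.14 (SE 0.22). In Atp5l, Atp5g1 and Atp5g2 WT replicate 3 was the lowest array, as it was in Uqcr11 and Cox7c, and without it the first 3 were at −0.02, −0.07 and −0.07. On WT replicate 3 the Actb signal at the 3′ end was 2.45 times that at the 5′ end, where this ratio was 1.64 and 1.73 in REL and 1.58 and 1.73 in WT replicates 1 and 2. The part of that ratio in these values was not tested.

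Probe sets of 1 gene gave a check within the arrays. Of the 87 probe sets 77 passed the filter, and 64 of these were below 0, with both REL arrays below every WT array for 17 of the 77 and above for 1, where the shares over all genes, counted by gene, were 14.3% and 9.53%. The probe sets that passed disagreed in direction for 8 genes, which were Cox5a, Cox5b, Cox7c, Cox8a, Atp5c1, Atp5d, Atp5g1 and Atp5j2. For 24 of the 41 genes the probe set used is of a kind that can read several transcripts or related sequences (a, s and x in its name). These families have processed pseudogenes, so that part of such a signal is uncertain.

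The genes around these complexes gave a mixed picture, and 0 of them passed in limma over all genes. At an unadjusted p under 0.05 there were 3 lower complex IV assembly genes, 1 lower and 1 higher gene of ATP synthase assembly and inhibition, 6 lower complex I genes and 1 lower complex II gene. These were 13.0% of the complex IV assembly genes, 16.7% each way of the 6 ATP synthase ones, 18.8% of complex I and 25% of the 4 complex II genes, against 4.99% lower and 3.24% higher over all genes. Of 23 tested complex IV assembly genes 14 were below 0 (60.9%, near the 56.8% of all genes), with a median of −0.12. Slirp, an RNA-binding protein that stabilises mitochondrial messenger RNA, read 4838 and 4543 in REL and 6359, 7039 and 6947 in WT, at −0.53 (SE 0.15, limma adjusted p = 0.4). Higd1a was at −0.63 and Surf1, an assembly factor mutated in Leigh syndrome, at −0.52, and neither overlapped between groups. Of 6 complex III assembly genes 4 were below 0 (66.7%, against 56.8% of all genes, median −0.13). Among them was Ttc19 at −1.34, where REL replicate 2 alone was low (88.3, against 883 in REL replicate 1 and 712 to 810 in WT). Uqcc2 was at −0.24 and Lyrm7 at −0.55. Lyrm7 read 31.1 and 26.4 in REL and 32.1, 86.2 and 40.9 in WT, near the signal of dim probe sets (23.1), which limits its value.

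Of 6 genes for ATP synthase assembly and inhibition 4 were below 0 (66.7%, against 56.8% of all genes). Their median of −0.43 stood at −0.12 without REL replicate 1. Atpif1, the inhibitor that stops the enzyme from running backwards, read 3381 and 3186 in REL and 4257, 6609 and 5779 in WT, with no overlap, at −0.73 (SE 0.21, limma adjusted p = 0.402). Tmem242 lay higher, at 1.48 (SE 0.63), and Tmem70 lower, at −0.48 (SE 0.36). Ndufa4, now counted as a complex IV subunit, was at −0.23. A list of carriers and other energy-linked mitochondrial genes had a median of −0.12, with 9 of 11 below 0 (81.8%, against 56.8%). Among them were the adenine nucleotide carrier Slc25a5 at −0.22, Vdac2 at −0.26 and Chchd3 at −0.36. Without REL replicate 1 the median of that list was 0.02 with 5 below 0.

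The regulators of these genes did not share their direction, with 7 of 14 below 0 and a median of 0.02. Nrf1, the factor of the palindrome printed above, read 756 and 1018 in REL and 485, 671 and 610 in WT, with both REL arrays higher, at 0.57 (SE 0.38, limma adjusted p = 0.752). Gabpa, the DNA-binding subunit of GABP, read 3871 and 1820 in REL and 2080, 1522 and 1387 in WT, at 0.69 (SE 0.34, limma adjusted p = 0.647) with overlapping groups. Tfb1m, a mitochondrial ribosomal RNA methyltransferase, was at −0.67 (SE 0.44).

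The first complexes of the chain gave similar counts. Of 32 tested complex I genes 27 were below 0 (84.4%), with a median of −0.22 (−0.12 without REL replicate 1), and for 12 of them (37.5%, against 14.3% of all genes) the REL arrays were the lowest pair. Its 3 genes with the smallest p were Ndufa5 at −0.87, Ndufv1 at −0.62 and Ndufb6 at −0.91. All 4 complex II genes were below 0, with a median of −0.35, Sdha at −0.59, Sdhd at −0.54 and Sdhb at −0.15. The difference between these lists and complexes III, IV and ATP synthase was not tested. When arrays were centred on their medians, the all-gene median was 0.10 in place of −0.07. Centring moves every gene alike, so the distance to that median stayed the same by construction. With quantile normalization the medians of complexes III, IV and ATP synthase were −0.27, −0.09 and −0.13, where that of all genes was −0.04. With centring the medians of complex III assembly, complex IV assembly and carriers turned to 0.04, 0.05 and 0.05, and Sdhb to 0.02.

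**Figure D4:**
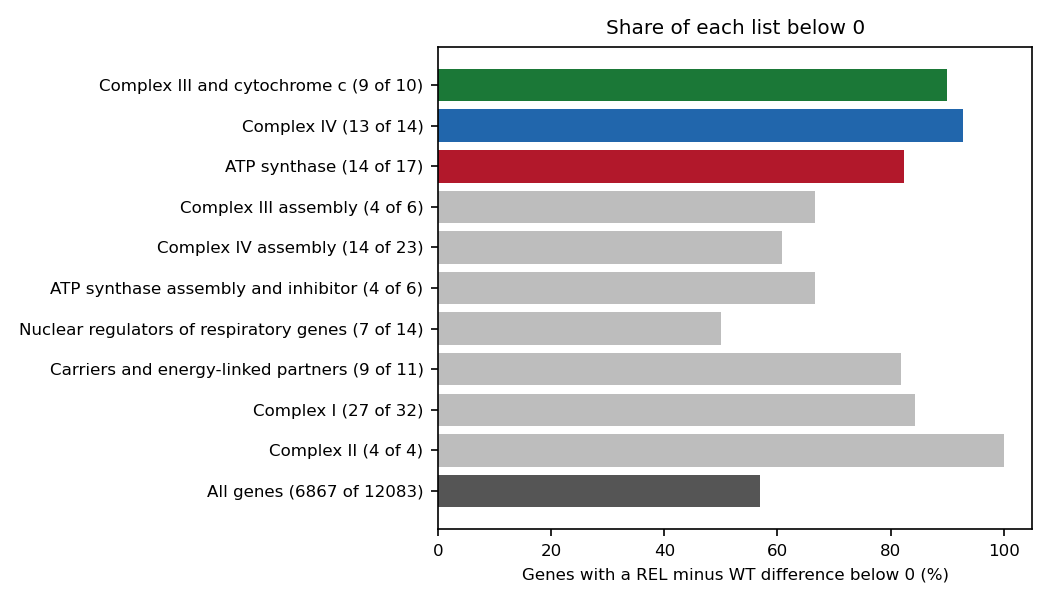
Share of tested genes with a REL minus WT difference below 0, in percent, for the 3 groups described (coloured bars), for fixed lists of related genes (grey) and for all genes (dark grey). Complex III and cytochrome c, complex IV and ATP synthase stand at 90%, 92.9% and 82.4%, complex I at 84.4% and all genes at 56.8%.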

How the data were processed

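Gene expression was measured on 5 single-colour Affymetrix arrays, 2 REL and 3 WT, grouped by the titles in the labels. RNA from a small number of sorted cells was amplified before it was labelled (labels' protocols). Intensity values were deposited by the authors as linear MAS5 signals of 45101 probe sets in 1 table, and MAS5 is named without a version in the submitters' processing notes. The trimmed mean (2% from each end) was 500.0 on every array, while medians were 48.1 and 30.1 in REL and 40.7, 41.1 and 54.6 in WT. Across probe sets, log2 signals correlated at 0.928 within REL, 0.931 to 0.942 between the groups and 0.947 to 0.955 within WT.

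Of the probe sets, 34958 had 1 platform gene symbol, 932 several and 9211 none. Signals were used as log2(signal + 16), which understates fold changes of dim genes. Probe sets in the lowest 40% by mean log2 value were left out, and the brightest probe set of each gene was kept, which left 12083 genes. They were fitted with limma 3.58.1 in R 4.3.3 (lmFit, then eBayes with trend, on group alone, leaving 3 residual degrees of freedom). Genes were called at a Benjamini-Hochberg adjusted p under 0.05 in a two-sided test, whose precision is limited by the number of arrays. In simulated data with 12083 genes this fit recovered 2.15% of 2-fold and 20% of 4-fold changes. The changed genes were drawn from all genes, whose median SE was 0.48. It was 0.16 for the 41 genes described here, so these shares need not hold for them. Promoter windows came from RefSeq (GRCm38.p6). The members, lists and tests were chosen with earlier results of these data known. Per complex, the 5 tested genes with the smallest p, Cyc1, Cycs and every gene without overlap are given by array, and up to 3 genes of each related list are named by smallest p. Uqcrfs1, Atp5k and Atp5l fall outside this rule and were given by array after their values were seen. Alternatives were other pseudocounts, filters and normalizations, the mean of probe sets, no trend, the replicate number as a block and each array left out. Tables and plots were made in Python 3.11.15 (pandas 2.3.3, numpy 2.4.6, matplotlib 3.10.9).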

Additional observations from a re-analysis of the deposited data

How the results depend on the processing

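No gene of complexes III, IV, cytochrome c or ATP synthase was called under any alternative run, and 27 to 38 of those tested lay below 0. The number of genes called among all genes was 1, and it was 0 with a pseudocount of 1 or 64, with no filter, with a 60% filter, with the mean of probe sets and without the trend, 2 with quantile normalization and 3 with median centring. With median centring the medians were −0.14 (complex III and cytochrome c), −0.0305 (complex IV) and −0.0597 (ATP synthase), and 27 of the 41 genes lay below 0, against 40.6% of all genes. The direction turned there for Uqcrh (0.0428), Cox4i1 (0.0145), Cox5a (0.0604), Cox7a2 (0.0074), Cox8a (0.10), Atp5a1 (0.0354), Atp5h (0.0207), Atp5j (0.0925) and Atp5o (0.009), with quantile normalization for Atp5j (0.015), and with the mean of probe sets for Cox7c (−0.0487), Cox8a (0.0303) and Atp5g1 (−0.17). These turns under centring follow from the shift of all genes, and the cause of the others was not tested.

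With the replicate block, 18 genes were called among all genes and 0 of the 41, at 1 residual degree of freedom. WT replicate 3 has no partner in that fit, so its differences equal those without that array. The direction turned for Cox6a2 (0.0006), Atp5g1 (−0.0665), Atp5g2 (−0.0734) and Atp5l (−0.0247). The labels do not say that a number marks a shared animal or day. Deviations of same-numbered arrays from their group means correlated at −0.04 and −0.02. With 2 REL arrays the deviations of one mirror those of the other, so these values cannot show whether same-numbered arrays share anything more.

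Leaving out each array in turn gave 0 to 8 genes called (8 without REL replicate 1) and medians of −0.40 to −0.16 for complex III and cytochrome c, −0.30 to −0.09 for complex IV and −0.37 to −0.056 for ATP synthase. In each of the 3 groups the value nearest to 0 was that without REL replicate 1. Ranges that crossed 0 were −0.36 to 0.11 for Uqcrh, −0.87 to 0.41 for Cox6a2, −0.35 to 0.0289 for Cox7a2, −0.26 to 0.12 for Cox8a, −0.86 to 0.0393 for Cox8b, −0.32 to 0.0566 for Atp5a1, −0.12 to 0.26 for Atp5g1, −0.0734 to 0.18 for Atp5g2, −0.38 to 0.0032 for Atp5g3, −0.31 to 0.0145 for Atp5h, −0.28 to 0.13 for Atp5j and −0.0247 to 0.30 for Atp5l. Cox7c ran from 0.11 to 1.44. Signals near those of dim probe sets limit the values of Cox6a2, Cox6b2, Cox7a1 and Cox8b.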
